A study of Capsicum annuum with 78 samples.

Results

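Pepper leaves (Capsicum annuum cv. Bukang) that had been sprayed with abscisic acid (ABA) were compared with leaves sprayed with distilled water (mock), both taken 1 h after the treatment. The comparison used 6 of the 78 libraries of the series, 3 of ABA at 1 h and 3 of mock at 1 h, chosen by their titles, and covered all 35884 genes of the count table. ABA was given as 100 μM of the racemic hormone to plants of 6 weeks of age, and each library held the leaves of 4 pooled plants. For reference, libraries of ABA and mock at 3, 6, 12 and 24 h, of mock at 0 h, and of salicylic acid (SA, 5 mM sodium salicylate), ethylene (ET, 5 mM ethephon) and jasmonate (MeJA, 100 μM methyl jasmonate) at 1 h were used, with 3 libraries in each group. Each treatment was incubated separately from the others, so the effect of ABA and a difference between incubations cannot be told apart.

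ABA is the hormone that plants accumulate when water is short. It binds receptors of the PYR/PYL family, the bound receptors block the clade A protein phosphatases (PP2C), and the SnRK2 kinases released in this way activate transcription factors of the bZIP class. In leaves the pathway is known for closing the stomata within minutes and for switching on genes of dehydration tolerance. The identifiers of the count table carry no gene names, and 0 of them were found in the annotation table at hand, so receptors, phosphatases and target genes of the pathway, and the markers of leaf cell types, could not be looked up. Genes are therefore described by their level, size of change, time course and identifier.

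The 3 ABA libraries held 7015306, 7619458 and 8228205 counts and the 3 mock libraries 5933887, 6009156 and 6406138, so every ABA library was deeper than every mock library, with a mean of 124.6% of the mock mean. With 3 counts taken as the floor, the mean floor was 0.395 CPM (counts scaled to a library total of 1000000) in ABA and 0.491 CPM in mock, which covers counting error only. Between 21654 and 21800 genes were detected in an ABA library, and between 20701 and 21029 in a mock library. Replicates differed by more than sampling noise. The chi-square statistic per degree of freedom was between 5.08 and 7.90 for the pairs of ABA libraries and between 3.12 and 3.61 for the pairs of mock libraries. On log2(CPM + 1), Pearson's r across genes was between 0.981 and 0.986 within ABA, between 0.986 and 0.987 within mock, and between 0.960 and 0.969 for an ABA library with a mock library. Genes are not independent replicates, so these values only describe the libraries. Because each library was a pool of plants, the p-values measure the spread between such pools. A lower level in whole leaves may mean less RNA per cell or fewer cells of a type, which cannot be told apart here.

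At 1 h, 4073 of 18713 genes tested differed between ABA and mock, 2118 of them higher and 1955 lower in ABA (21.8% of the genes tested, 11.3% higher and 10.4% lower; edgeR's quasi-likelihood test, Benjamini-Hochberg adjusted p under 0.05). The rises were larger than the falls. The median log2 fold change of the genes that passed was 0.87 among rises and -0.55 among falls. A log2 fold change of 1 or more was reached by 902 rises and 227 falls, which were 4.82% and 1.21% of the genes tested and together made 6.03%. These are called raised and lowered genes from here on. In finer steps, 590 genes rose by 1 to 2 log2 units, 196 by 2 to 3 and 116 by 3 or more, whereas 202 fell by 1 to 2, 20 by 2 to 3 and 5 by 3 or more. Below 1 log2 unit falls outnumbered rises, with 757 rises and 928 falls between 0.5 and 1 and 459 rises and 800 falls under 0.5. The median log2 fold change of all genes tested was 0.02, a value that the scaling between libraries (TMM) tends to hold near 0. With total counts only, without TMM factors, the median was 0.06, and 2297 genes were higher and 1590 lower.

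**Figure D1:**
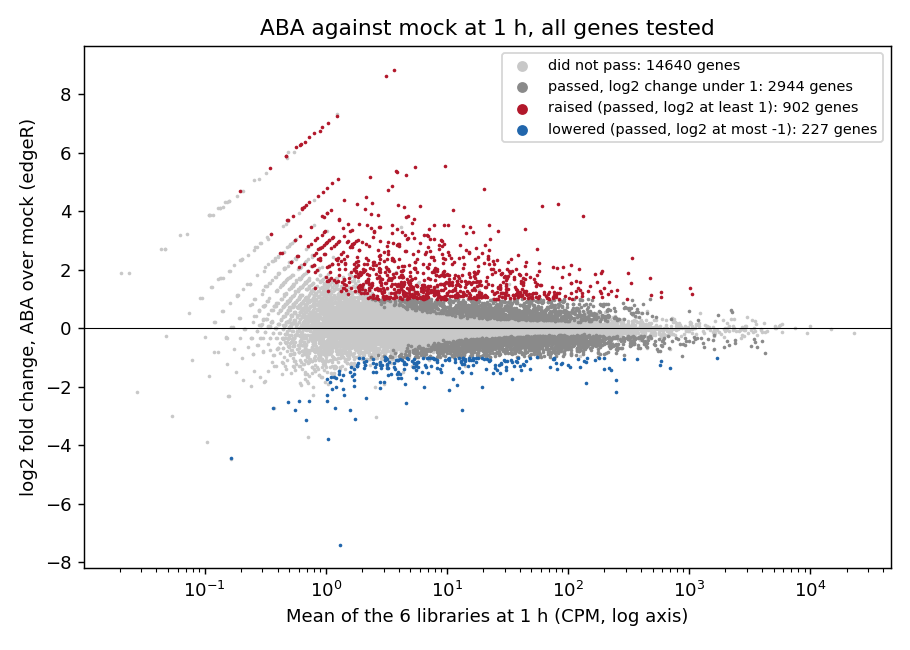
Each point is 1 of the 18713 genes tested, with the mean CPM of the 6 libraries at 1 h on a log axis and the log2 fold change of ABA over mock on the other axis. Raised genes (902) spread further from 0 than lowered genes (227), and the highest values sit among genes of low counts, where the fitted fold change depends on the small count added by edgeR.

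The numbers of rises and falls of any size dropped whichever single library was left out. Without ABA replicate 1, 1301 genes were lower in place of 1955, and 1575 higher in place of 2118. Without any other single library, between 1443 and 1699 genes were lower and between 1664 and 1957 higher. With a replicate number left out of every group, which removes a library from both arms, 1217 genes were higher and 804 lower without replicate 1, and 1384 higher and 1231 lower without replicate 2. The number of lowered genes was between 169 and 274, and that of raised genes between 688 and 907, whichever library or replicate number was left out. Thinning every library to the smallest total, which removed the difference in depth, gave 869 raised and 197 lowered genes. Against a log2 fold change of 1 as the null value, a stricter question than the 2 separate thresholds, 223 genes were higher and 12 lower.

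In CPM, all 3 ABA libraries lay above all 3 mock libraries for 878 of the 902 raised genes, and all 3 lay below for 218 of the 227 lowered genes. Over all genes tested, the groups did not overlap for 21.4% in the upward and 14.8% in the downward direction, and the raised and lowered genes were chosen on the same libraries, so these shares only describe them. The raised genes took 3.41%, 3.08% and 3.06% of the counts of the ABA libraries and 1.13%, 1.12% and 1.11% of those of the mock libraries. The lowered genes took 0.538%, 0.605% and 0.626% in ABA and 1.31%, 1.38% and 1.31% in mock. The bulk of the counts therefore came from genes of neither list.

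The share of raised genes was highest among genes of 1 to 10 CPM, and so was that of lowered genes, which was lowest under 1 CPM. Among genes with a mean of 1 to 10 CPM over the 6 libraries, 7.09% were raised and 1.72% lowered. Among genes with 10 to 100 CPM the shares were 3.39% and 0.882%, and among the 1609 genes with 100 CPM or more they were 2.67% and 1.37%. Under 1 CPM, 4.56% were raised and 0.507% lowered. The share of genes passing the test at any size ran the other way, with 5.07%, 13.5%, 28.5% and 36.7% from the lowest class to the highest. The median standard error of the log2 fold change was 0.73, 0.32, 0.14 and 0.11 in the same classes, so the smallest change that could pass was larger in genes of low abundance.

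In all, 5 genes had 0 counts in all 3 mock libraries and at least 10 counts in each ABA library, and 1 gene had the reverse. Of the 35884 genes of the count table, 13214 had 0 counts in all 3 mock libraries and 12364 in all 3 ABA libraries. Every ABA library was deeper than every mock library, and the part of depth in these numbers was not tested. The number depended on these limits, with 32 genes for a minimum of 3 counts in each ABA library and 20 for a mean of at most 1 count in mock. The 5 genes were at least 3.28-fold to 14.8-fold higher in ABA than the floor of 3 counts per mock library, and their highest count in an ABA library was 71. At 3, 6, 12 and 24 h after ABA every one of the 5 had counts in at least 1 library, with median levels of 1.13, 0.927, 2.54 and 1.29 CPM against 2.08 CPM at 1 h. None of them was at 0 in all 18 mock libraries of the series. The gene with the reverse pattern was at least 6.60-fold lower in ABA.

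Named genes were taken as the 2 largest rises and the 2 largest falls among genes that passed the test, did not overlap between the groups and had a mean of at least 10 CPM over the 6 libraries (1317 rises and 1542 falls qualified). The largest rise was that of CA.PGAv.1.6.scaffold647.6. It had 37.1, 34.0 and 47.0 CPM in the ABA libraries and 0.998, 1.25 and 2.02 CPM in the mock libraries, from 259 to 330 counts against 6 to 12. The groups lay far apart, with a log2 fold change of 4.74 ± 0.38 (SE, n = 3 each; adjusted p = 9.43e-11, edgeR). CA.PGAv.1.6.scaffold1134.7 had 174.6, 137.3 and 159.5 CPM in the ABA libraries and 9.49, 6.40 and 8.59 CPM in the mock libraries. Its log2 fold change was 4.23 ± 0.28 (SE, n = 3 each; adjusted p = 2.95e-12, edgeR), and the lowest ABA library was far above the highest mock library.

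The largest fall was that of CA.PGAv.1.6.scaffold497.9, with 2.55, 3.81 and 3.85 CPM in the ABA libraries and 23.0, 22.8 and 23.4 CPM in the mock libraries. The mock libraries were nearly equal, and the log2 fold change was -2.81 ± 0.22 (SE, n = 3 each; adjusted p = 1.08e-10, edgeR). CA.PGAv.1.6.scaffold497.23 was a more abundant gene, with 102.3, 100.0 and 69.8 CPM in the ABA libraries and 398.9, 431.9 and 383.4 CPM in the mock libraries. It fell by 2.20 log2 units (SE 0.20, n = 3 each; adjusted p = 1.38e-09, edgeR). Unlike the others, this gene stood in ABA leaves at 1 h close to where it stood in mock leaves at 0 h, with 90.7 ± 18.1 CPM in ABA at 1 h and 116.0 ± 42.7 CPM in mock at 0 h (SD, n = 3 each), while mock leaves had 404.7 ± 24.8 CPM at 1 h. Mock at 0 h was a reference added after the data were seen, and it was tested in a fit of all 78 libraries. Against it, the log2 fold change of this gene was -0.40 and did not pass (adjusted p = 0.148, edgeR). Over all alternatives run for this gene the adjusted p was between 1.34e-25 and 0.148 (edgeR or DESeq2). The other 3 named genes passed against mock at 0 h too.

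**Figure D2:**
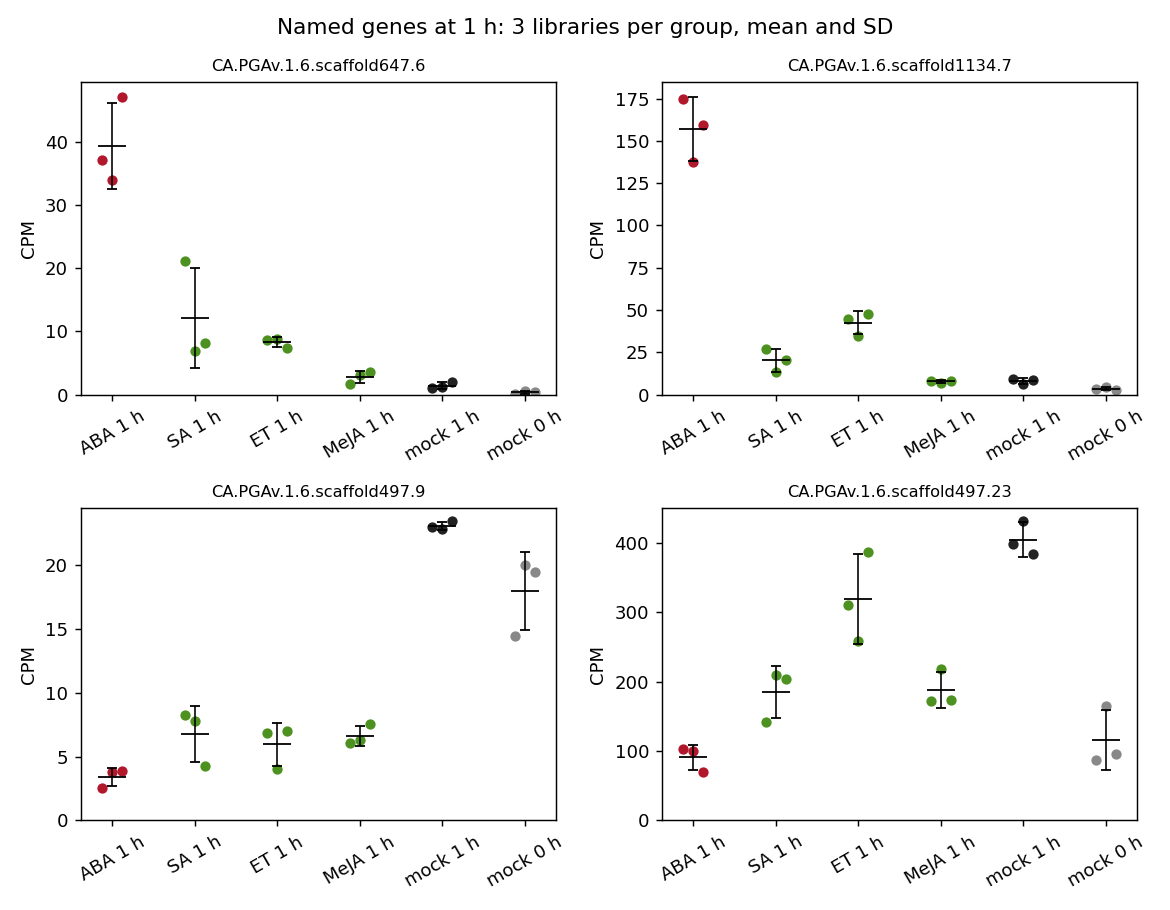
CPM of the 4 named genes in each of the 3 libraries of ABA, SA, ET, MeJA and mock at 1 h and of mock at 0 h, with bars for the mean and SD. For CA.PGAv.1.6.scaffold1134.7 the ABA libraries (137.3 to 174.6 CPM) stand above every other library, and for CA.PGAv.1.6.scaffold497.23 mock at 1 h (383.4 to 431.9 CPM) stands far above mock at 0 h.

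The identifiers consist of a scaffold and a running number. Whether that number follows the position on the scaffold is not given in the sources used here. A minority of the raised genes had consecutive numbers. Of the 11406 pairs of tested genes with consecutive numbers, both genes were raised in 70 pairs and both lowered in 4. The number next to a raised gene, where tested, belonged to another raised gene in 14.6% of cases, beside 4.82% raised among all genes tested, and the same share for lowered genes was 2.91%, beside 1.21%. In all, 134 of the 902 raised genes (14.9%) had a raised neighbour by number on either side. There were 6 runs of at least 3 raised genes, and the longest run had 3 genes. On the scaffold of CA.PGAv.1.6.scaffold1134.7, 5 of 15 genes tested were raised, and on that of CA.PGAv.1.6.scaffold647.6, 3 of 11. On the scaffold that carries both named falls, 5 of 77 genes tested were raised and 2 lowered, and these 2 were the named genes themselves. These tallies were made after the values were seen. Near-identical copies next to each other could share reads, which was not tested because the sequences were not used here.

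The later time points show how long the differences of 1 h lasted. Treated and mock libraries of 3 to 24 h were part of the fit that chose the raised and lowered genes. They entered its filter, its scaling and the estimate of each gene's spread, while the fold change compared libraries of 1 h. With a separate fit of the 6 libraries of each time, 40.7% of raised genes passed upward at 3 h. The shares at 6, 12 and 24 h were 12.02%, 52.5% and 11.3%. Lowered genes passed downward in 35.2%, 5.56%, 29.2% and 10.2% of cases at 3, 6, 12 and 24 h. The rest of this paragraph is from the main fit. After 3 h, 386 of the 902 raised genes (42.8%) were higher in ABA than in mock of that time, beside 6.17% of all genes tested, and 3 were lower. The median log2 fold change of the raised genes was 0.88 at 3 h, against 1.61 at 1 h, where it was set by the choice of the genes. After 6 h the difference was small, with a median of 0.05, 106 genes (11.8%) higher beside 3.76% of all genes, and 75 (8.31%) lower beside 2.63%. After 12 h, 483 raised genes (53.5%) were again higher, beside 13.3% of all genes, and 21 (2.33%, beside 13.8%) were lower, with a median of 0.90. After 24 h the number was 130 (14.4%) beside 4.59% of all genes, and 11 (1.22%, beside 4.85%) were lower, with a median of 0.32.

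Over the 4 later times, 294 of the raised genes (32.6%) passed upward at none of them, 269 at 1, 217 at 2, 86 at 3 and 36 (3.99%) at all 4. Among all genes tested, 78.9% passed upward at none and 0.283% at all 4. Genes with larger rises at 1 h were more often higher later. After 12 h, 74.1% of the 116 genes with a rise of 3 log2 units or more passed upward, 59.7% of the 196 genes between 2 and 3, and 47.5% of the 590 genes between 1 and 2. After 3 h the same shares were 52.6%, 44.4% and 40.3%.

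Whether more of the lowered genes passed downward at 3 h or at 12 h depended on the setting. The shares at 3 h and 12 h were 23.7% and 34.6% without replicate 3, and 24.2% and 23.7% without replicate 2. Without replicate 1 the share was 23.7% at both times. Of the genes lower at 1 h by any size, 26.4% passed at 3 h and 32.8% at 12 h. The values that follow are of the main fit. After 3 h, 77 of 227 (33.9%) were lower in ABA, beside 4.23% of all genes tested, and 0 were higher. After 6 h, 12 (5.29%, beside 2.63%) were lower and 16 were higher (7.05%, beside 3.76%), with a median log2 fold change of 0.08. After 12 h, 69 (30.4%, beside 13.8%) were lower and 14 (6.17%, beside 13.3%) higher, with a median of -0.38. After 24 h, 27 (11.9%, beside 4.85%) were lower and 17 (7.49%, beside 4.59%) higher, with a median of -0.08. Without replicate 1 the share of lowered genes that passed downward was 2.96% at 6 h and 4.73% at 24 h. Without replicate 2 it was 5.69% at 24 h, and without replicate 3 it was 3.11% at 6 h. With 1 replicate number left out in every group, the share of raised genes that passed upward at 3 h was 39.0% without replicate 1, 24.8% without replicate 2 and 25.5% without replicate 3. The same share at 24 h was 8.58%, 4.90% and 20.5%. At 6 h it was 6.83% without replicate 1 and 6.81% without replicate 2.

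**Figure D3:**
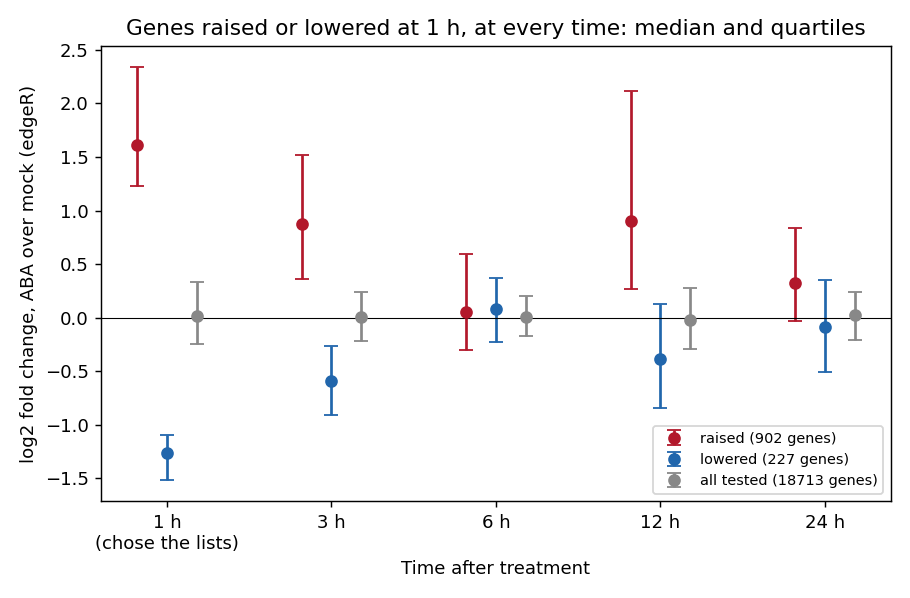
Median log2 fold change of ABA over mock at each time for the 902 genes raised at 1 h, the 227 genes lowered at 1 h and all 18713 genes tested, with bars from the lower to the upper quartile. The raised genes sit at 0.88 at 3 h, 0.05 at 6 h and 0.90 at 12 h. The median of all genes stays near 0, where the scaling between libraries tends to hold it.

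**Figure D4:**
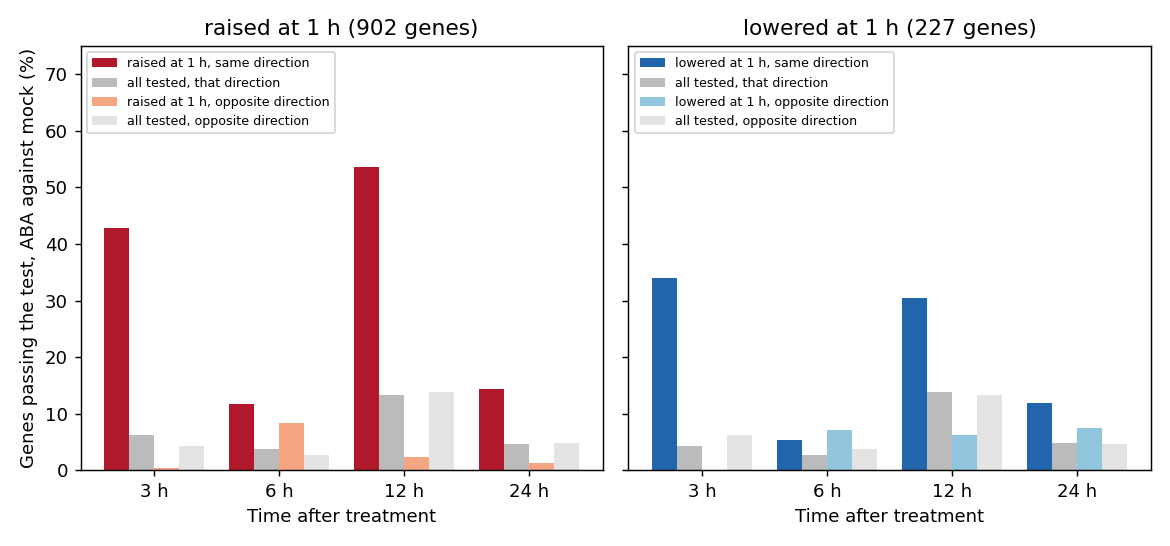
Percentage of the genes raised (left) or lowered (right) at 1 h that passed the test of ABA against mock at 3, 6, 12 and 24 h in the same or the opposite direction, beside the percentage of all genes tested. For raised genes the share in the same direction is 42.8% after 3 h, 11.8% after 6 h, 53.5% after 12 h and 14.4% after 24 h.

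Between 1 h and 6 h the levels behind the small difference at 6 h changed in both treatments. Between 3 h and 6 h the median moved little in ABA and rose in mock. The levels at 1 h were partly set by the choice of the genes. The median level of the raised genes in ABA leaves was 9.36 CPM after 1 h, 5.66 after 3 h, 5.29 after 6 h, 7.82 after 12 h and 4.49 after 24 h. In mock leaves it was 2.53 CPM before the treatment (0 h), 2.94 after 1 h, 3.11 after 3 h, 5.0 after 6 h, 3.32 after 12 h and 3.61 after 24 h, so mock was highest at 6 h. The median over all genes tested was 13.7 CPM in ABA and 13.8 CPM in mock at 6 h, and 12.5 CPM in ABA and 11.8 CPM in mock at 1 h. The 75 raised genes that were lower in ABA at 6 h had medians of 43.4 CPM in ABA and 9.94 CPM in mock at 1 h, and of 16.1 CPM in ABA and 30.8 CPM in mock at 6 h. These genes were chosen by their differences at 1 h and 6 h, so the crossing between those times is set by the choice. At times outside that choice they had 20.7 CPM in ABA and 10.9 in mock (3 h), 22.3 and 14.4 (12 h), and 9.15 and 9.35 (24 h).

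Both named rises had a higher mean in ABA than in mock at 1 h and a lower one at 6 h. CA.PGAv.1.6.scaffold1134.7 had 157.1 ± 18.8 CPM in ABA and 8.16 ± 1.59 CPM in mock at 1 h, 15.9 ± 6.6 in ABA and 4.93 ± 1.29 in mock at 3 h, and 14.8 ± 2.7 in ABA and 33.5 ± 6.2 in mock at 6 h (SD, n = 3 each). At 6 h it was lower in ABA (log2 fold change -1.16 ± 0.26 SE, adjusted p = 0.0045, edgeR), and at 12 h higher again, with 20.2 ± 7.7 CPM in ABA and 2.0 ± 0.76 CPM in mock (SD, n = 3 each). CA.PGAv.1.6.scaffold647.6 had 6.27 ± 3.04 CPM in ABA and 1.16 ± 0.18 CPM in mock at 3 h, and 2.56 ± 0.07 in ABA and 5.79 ± 1.02 in mock at 6 h (SD, n = 3 each), where its log2 fold change of -1.15 did not pass (adjusted p = 0.060, edgeR).

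Among the named falls, CA.PGAv.1.6.scaffold497.9 stayed low in ABA, with 3.11 ± 0.61 CPM at 3 h, 1.76 ± 0.49 at 6 h and 2.64 ± 0.52 at 12 h, and stood at 31.6 ± 5.5 CPM at 24 h (SD, n = 3 each). In mock it had 9.55 ± 1.02 CPM after 3 h, 0.585 ± 0.369 after 6 h, 3.75 ± 1.35 after 12 h and 20.7 ± 4.8 after 24 h. Mock was below ABA at 6 h (log2 fold change 1.54 ± 0.42 SE, adjusted p = 0.023, edgeR). It was also below ABA at 24 h (0.61 ± 0.18 SE, adjusted p = 0.028, edgeR). The gene was still lower in ABA at 3 h (-1.66 ± 0.25 SE, adjusted p = 4.3e-05, edgeR). At 12 h its difference did not pass (adjusted p = 0.097, edgeR). CA.PGAv.1.6.scaffold497.23 had a second high level in mock at 12 h. It stood at 201.3 ± 39.9 CPM in ABA and 394.5 ± 28.2 CPM in mock at that time (SD, n = 3 each; log2 fold change -1.10 ± 0.19 SE, adjusted p = 5.05e-05, edgeR). At 3, 6 and 24 h its difference did not pass.

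**Figure D5:**
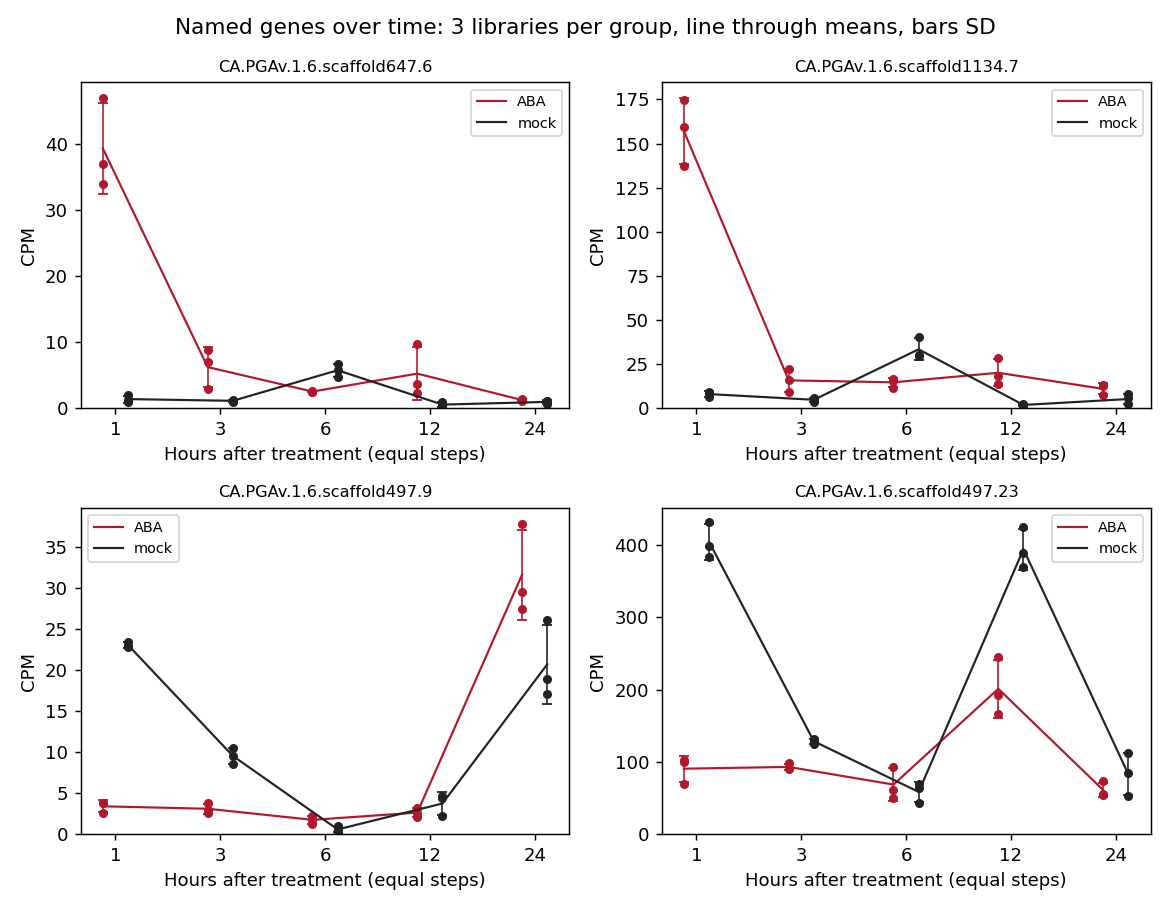
CPM of the 4 named genes at 1, 3, 6, 12 and 24 h in the 3 libraries of ABA and of mock, with lines through the group means and bars for the SD. Both rises are highest in ABA at 1 h, and CA.PGAv.1.6.scaffold497.23 is high in mock at 1 h (404.7 CPM) and 12 h (394.5 CPM).

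The difference between ABA and mock at 1 h was also tested directly against that of each later time. It was unlike that at 3 h for 295 genes (1.58% of those tested), unlike that at 6 h for 2623 (14%), unlike that at 12 h for 3008 (16.1%) and unlike that at 24 h for 2494 (13.3%; adjusted p under 0.05, edgeR). Without replicate 1 these counts were 73, 1139, 1349 and 882, and without replicate 2 they were 67, 1586, 1595 and 1372. Without replicate 3 the count for 12 h was 1573. A gene missing from such a count was not shown to differ equally at both times.

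ABA leaves at 1 h were further compared directly with the leaves of the other hormones at 1 h, which leaves the mock libraries out of the contrast. Doses differed, and 17356 genes were tested over 15 libraries. Against ET, 7130 genes differed (41.1%), 3644 higher (21%) and 3486 lower (20.1%) in ABA, and 1254 (7.23%) were higher and 546 (3.15%) lower by 1 log2 unit or more. Against MeJA, 3330 genes differed (19.2%), 1728 higher (9.96%) and 1602 lower (9.23%) in ABA, and 696 (4.01%) were higher and 452 (2.6%) lower by 1 log2 unit or more. Against SA, 3294 genes differed (19%), 1515 higher (8.73%) and 1779 lower (10.3%) in ABA, and 479 (2.76%) were higher and 360 (2.07%) lower by 1 log2 unit or more. Without replicate 1 the count for SA was 1886 and that for MeJA 2079, and without replicate 2 the count for SA was 1911. All 3 ABA libraries lay above the other 12 libraries of 1 h, mock included, for 722 genes (4.16%), and below them for 308 (1.77%).

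For the raised genes, the median level at 1 h was between 8.79 and 10.1 CPM in the ABA libraries, 5.08 and 7.06 in SA, 5.75 and 6.88 in ET, 4.38 and 4.70 in MeJA, and 2.65 and 3.03 in mock. For the lowered genes it was between 3.40 and 4.42 CPM in ABA, 5.90 and 6.90 in SA, 5.59 and 7.0 in ET, 6.26 and 6.48 in MeJA, and 8.90 and 9.98 in mock. ABA and mock lie at the ends because the genes were chosen on them. The other hormones had no part in that choice, and their libraries lay between the ends in both lists. For the lowered genes, mock leaves of every other time also lay between the ends. They had 7.68, 7.62, 5.70, 6.52 and 5.43 CPM at 0, 3, 6, 12 and 24 h (means of 3 libraries). For the raised genes, mock leaves lay between the ends at 3, 6, 12 and 24 h, with 3.11, 5.0, 3.32 and 3.61 CPM, but not at 0 h (2.53 CPM). A position between the ends is therefore not particular to the hormones. For the raised genes, SA (5.98 CPM) and ET (6.24 CPM) at 1 h nevertheless lay above mock of every time. MeJA (4.51 CPM) lay above mock of every time but 6 h. For the lowered genes, SA (6.42 CPM), ET (6.68 CPM) and MeJA (6.58 CPM) lay within the range of mock at the other times.

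CA.PGAv.1.6.scaffold647.6 averaged 39.4 ± 6.8 CPM in ABA, 12.1 ± 7.9 in SA, 8.28 ± 0.80 in ET, 2.81 ± 1.0 in MeJA and 1.42 ± 0.53 in mock (SD, n = 3 each). ABA was higher than SA by 1.64 ± 0.25 log2 units (SE; adjusted p = 5.42e-05, edgeR) and higher than ET and MeJA by 2.12 and 3.76. CA.PGAv.1.6.scaffold1134.7 averaged 157.1 CPM in ABA, 20.3 ± 6.8 in SA, 42.4 ± 6.8 in ET and 7.79 ± 0.64 in MeJA (SD, n = 3 each), the last close to mock. ABA was higher than ET by 1.76 ± 0.15 log2 units (SE; adjusted p = 3.04e-09, edgeR).

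CA.PGAv.1.6.scaffold497.9 averaged 3.40 ± 0.74 CPM in ABA, 6.77 ± 2.19 in SA, 5.96 ± 1.66 in ET, 6.62 ± 0.81 in MeJA and 23.1 ± 0.3 in mock (SD, n = 3 each), so all hormone groups stood below mock. Against ET, the log2 fold change of ABA was -0.95 ± 0.25 (SE; adjusted p = 0.0039, edgeR). CA.PGAv.1.6.scaffold497.23 averaged 184.9 ± 37.4 CPM in SA, 318.6 ± 64.7 in ET and 188.2 ± 26.2 in MeJA (SD, n = 3 each). The log2 fold change of ABA was -1.93 ± 0.16 against ET, -1.10 ± 0.16 against SA and -1.09 ± 0.16 against MeJA (SE; adjusted p = 4.79e-09, 3.75e-05 and 2.51e-05, edgeR).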

How the data were processed

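The authors trimmed the reads with cutadapt 1.15 and Trimmomatic 0.38, checked them with FastQC 0.11.8, mapped them with HISAT2 to the CM334 genome v.1.6 and counted them per gene with HTSeq 0.11.2 (versions from the submitters' processing notes). The deposited values are these raw counts, 1 column per library, with 0 columns left without a sample. The counting mode for strand and for reads with more than 1 mapping position is not given in the sources used here. CM334 is not the cultivar sampled, and Bukang alleles that diverge from it may have lost reads.

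Group, time and replicate came from the sample titles, dose and plant number from the paper. Tests were run with edgeR 4.0.16 under R 4.3.3, using filterByExpr on all groups of a fit, TMM factors, glmQLFit and glmQLFTest. ABA against mock was fitted over the 30 libraries of 1 to 24 h in 10 groups, and hormone against hormone over the 15 libraries of 1 h. ABA at 1 h against mock at 0 h was fitted over all 78 libraries. The p-values were two-sided and adjusted within each contrast. Each SE was the log2 fold change divided by the square root of its F value. CPM used total counts. Replicate pairs were compared by chi-square over genes whose pair summed to 20 counts or more. The code was tested on simulated counts. Depth ranged from 5933887 to 8228205 counts over the ABA and mock libraries of 1 h.

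The 2 largest rises and falls were named by the rule in the report. The comparison, gene lists and rules were chosen with earlier results of these data known. Alternatives were RLE scaling, DESeq2 1.42.0, other filters, other sets of libraries, a replicate block, thinning, glmTreat and leaving out libraries. Mock at 0 h as the reference and total counts without TMM factors were added after the data were seen. Figures were drawn with matplotlib 3.10.9.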

Additional observations from a re-analysis of the deposited data

Results flagged for a closer look

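The difference between ABA and mock was not the same at 1 h as later, by a direct test of the difference between times (edgeR, adjusted p under 0.05). This held for 295 genes with 3 h, 2623 with 6 h, 3008 with 12 h and 2494 with 24 h, out of 18713 tested.

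The named genes passed this test at some of the times. For CA.PGAv.1.6.scaffold1134.7 the log2 fold change at 1 h exceeded that at 3 h by 2.59, that at 6 h by 5.39 and that at 24 h by 3.16. For CA.PGAv.1.6.scaffold647.6 it exceeded that at 6 h by 5.88 and that at 24 h by 4.39. For CA.PGAv.1.6.scaffold497.9 the log2 fold change at 1 h minus that at the later time was -4.35 for 6 h, -2.19 for 12 h and -3.42 for 24 h. For CA.PGAv.1.6.scaffold497.23 it was -1.69 for 3 h, -2.43 for 6 h, -1.10 for 12 h and -1.75 for 24 h. The difference between times did not pass for CA.PGAv.1.6.scaffold647.6 with 3 h (adjusted p = 0.070, edgeR) and 12 h (0.119), for CA.PGAv.1.6.scaffold1134.7 with 12 h (0.195) and for CA.PGAv.1.6.scaffold497.9 with 3 h (0.085). These genes were named for their change at 1 h, so a larger difference at 1 h is partly set by their choice. With 3 libraries in each group, single libraries were not screened for outliers.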

How the results depend on the processing

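Of 297 values recomputed under alternatives, 254 kept their direction and their side of the threshold or, for counts and shares, stayed within 1.5 times. RLE scaling, DESeq2, the fit of the 6 libraries at 1 h (3794 genes, 3490 of them shared with the 4073), the fit of all 78 libraries and thinning moved no count beyond that. Genes past a log2 fold change of 1 numbered 681 (537 higher, 144 lower) with at least 10 counts in each of the 6 libraries, a setting that tests fewer genes. With glmTreat they numbered 235 (223 higher, 12 lower). With mock at 0 h as the reference, in the fit of all 78 libraries, they numbered 2086 (1642 higher, 444 lower). In that fit mock at 1 h gave 1196 (939 higher, 257 lower), and the cause of the difference was not tested. Without TMM factors 957 genes were higher and 187 lower by that threshold. Without a fold-change threshold at 1 h, 3.32% of the genes lower at 1 h were lower at 6 h. Allowing a mean of 1 count in the group near 0 gave 20 genes near silent in mock and 2 in ABA, and a minimum of 3 counts in each ABA library gave 32 silent in mock.

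Leaving out replicates gave 2021 to 3656 genes that differed between ABA and mock (1217 to 1957 higher, 804 to 1699 lower), and 857 to 1169 past a log2 fold change of 1 (688 to 907 higher, 169 to 274 lower). The lowest of each of these came without replicate 1 in every group. Genes whose difference at 1 h was unlike that of a later time were 67 to 206 for 3 h, 1139 to 1875 for 6 h, 1349 to 1595 for 12 h and 882 to 1733 for 24 h. Raised genes passing upward later ranged over 24.8% to 39.0% (3 h), 6.81% to 8.59% (6 h), 44.5% to 46.8% (12 h) and 4.90% to 20.5% (24 h). Lowered genes passing downward were 23.7% to 24.2%, 2.96% to 3.79%, 23.7% to 34.6% and 4.73% to 12.8% at the same times. ABA differed from SA in 1886 to 2639 genes, from ET in 5236 to 5664 and from MeJA in 2079 to 2284. These fits have fewer libraries. The named genes kept direction and threshold in 63 of 64 values, the exception being CA.PGAv.1.6.scaffold497.23 against mock at 0 h (log2 -0.40).

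Same-numbered ABA and mock libraries at 1 h did not deviate together for replicates 1 and 2. The correlations of their deviations from the group means were 0.004 for replicate 1, -0.014 for replicate 2 and 0.129 for replicate 3. The value for replicate 3 was the highest of all pairs, and pairs of unlike numbers lay between -0.081 and 0.078. Because not every library correlated best with its own number, the numbers were not taken as pairs. A deviation shared by the libraries of replicate 3 is left in the main fit. With a replicate block 4051 genes differed, 2112 higher and 1939 lower, and the 4 named genes kept their calls against mock at 1 h. Their other calls were not refitted with the block. The difference at 1 h was then unlike that at 3 h for 279 genes. Depth limits the small changes of genes under 1 CPM.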
